A study of Mus musculus with 6 samples.

Results

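The nuclear-encoded subunits of the mitochondrial respiratory chain were followed in primary mouse cells cultured from embryos, embryonic fibroblasts (MEFs), at an early and a late passage and with or without a plant triterpene. Members were the protein-coding genes of the deposited count table whose symbols follow the subunit naming of complexes I to V: Nduf with a subunit letter and number, Sdha to Sdhd, Uqcr, Cyc1, Cox4 to Cox8 and Atp5. This rule used names only and found 87 of 55487 genes. Of these, 36 belong to complex I, 4 to complex II, 9 to complex III, 20 to complex IV and 18 to complex V. Ndufa4 is named for complex I and was placed with complex IV, where its protein is found. A further 10 genes matched by symbol, carried another biotype and were left out. All cells were wild type. The passage 1 cells (P1) carry the label non-senescent, and the passage 6 cells (P6) the label senescent. Each passage gave 3 libraries: vehicle, 20 µM α-amyrin and 20 µM β-amyrin, with treatment for 3 days. The labels name no replicate of any of these 6 conditions, and do not say whether the P6 cells came from the same isolate as the P1 cells.

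The respiratory chain sits in the inner mitochondrial membrane. Complexes I and II take electrons from NADH and succinate, complex III passes them on to cytochrome c, and complex IV, cytochrome c oxidase, hands them to oxygen. Complexes I, III and IV pump protons, and complex V, the ATP synthase, uses the gradient to make ATP. Most subunits are encoded in the nucleus and imported, a small set of core subunits comes from mitochondrial DNA, and the nuclear genes are known targets of the transcription factors NRF1, GABP and YY1. The amyrins are a pair of isomers, pentacyclic triterpenes of plant resins, that differ in where a methyl group sits on the outermost ring.

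Sequence bears on the counts of Ndufa12, a supernumerary complex I subunit whose difference between passages exceeded that of every other member. The gene spans chr10:94198720-94221443 on the plus strand (mm10). A processed copy, Ndufa12-ps, lies at chr5:130188395-130188796, and matched the Ndufa12 transcript of GENCODE release M21 at 400 of 402 aligned bases, or 99.5%. The annotated copy has 402 bases and the transcript 1110, so the rest of the transcript lies outside the aligned stretch. Both differences fall in the coding sequence of Ndufa12, A135G and T414C, with the Ndufa12 base first and positions counted from 1 at the A of the start codon. The first lies at position 94199998 and the second at position 94220837 of chromosome 10. The windows below are shown because only a read that covers 1 of these 2 bases can tell the gene from the copy within the aligned stretch. Capitals mark the differing base.
Ndufa12, position 135: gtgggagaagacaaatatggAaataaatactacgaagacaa
Ndufa12-ps, same stretch: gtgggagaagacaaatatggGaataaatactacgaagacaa
Ndufa12, position 414: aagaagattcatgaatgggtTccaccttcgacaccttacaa
Ndufa12-ps, same stretch: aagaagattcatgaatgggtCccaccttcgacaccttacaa

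Promoter sequence was examined because the members are textbook targets of shared factors. RefSeq promoter windows (GRCm38.p6, 250 bases before to 50 after each start) were found for 67 of the 81 members that could be tested. The NRF1 letters GCATGCGC, searched on both strands, stood in windows of 10 of these 67 genes (14.9%), against 5.59% of all tested genes and 3.05% of all genes with a window. The YY1 letters AAGATGGC also stood in 10 (14.9%, against 4.95% of tested genes and 3.19% of all). The ETS letters CCGGAAG, the core bound by GABP, stood in 17 (25.4%, against 18.8% and 9.93%). In all, 31 of the 67 genes held at least 1 of the 3 and 36 held none. For 6 of the 10 genes with NRF1 letters, a stretch of 30 bases around them lies wholly before the RefSeq start and within the window. These are printed with the letters in capitals, 5′ to 3′ on the gene's strand. In 4 of them the letters and their reverse complement overlap, and read the same on both strands. By the gene bounds of the count table, the stretches of Atp5g2 and Sdhb lie within the gene and that of Atp5k crosses its 5′ end.
Atp5g2, chr15:102671070-102671099, minus strand: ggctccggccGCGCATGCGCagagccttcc
Atp5k, chr5:108434430-108434459, minus strand: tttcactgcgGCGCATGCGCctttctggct
Cox6a1, chr5:115349101-115349130, minus strand: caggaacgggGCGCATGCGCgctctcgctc
Ndufa11, chr17:56717692-56717721, plus strand: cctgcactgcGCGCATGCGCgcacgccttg
Ndufa6, chr15:82354356-82354385, minus strand: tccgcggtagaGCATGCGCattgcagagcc
Sdhb, chr4:140961206-140961235, plus strand: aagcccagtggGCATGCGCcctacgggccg

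Libraries held 18798418 to 28752332 counts. Transcripts of the mitochondrial genome took 1.55% to 1.81% of the counts of a library. The 10 fibroblast markers were present in all 6 libraries, with summed levels of 36244 to 43598 CPM (counts corrected for library size) at P1 and 50993 to 56735 CPM at P6. Most of the list went against that sum, with 7 of 10 called lower at P6 (70.0%, against 29.1% of all genes, median -0.48). Called higher was 1 (10.0%, against 30.0%), Fn1, a matrix protein, at 1.33. The 12 macrophage markers summed at P1 to 321 CPM (vehicle), 274 CPM (α-amyrin) and 41.1 CPM (β-amyrin), and to 4920, 4998 and 3576 CPM in the P6 libraries, and all 12 were called higher at P6. None of the 12 was at 0 in every library. The 15 muscle markers summed to 107 to 125 CPM at P1 and 15.3 to 20.2 CPM at P6, and the 4 mesothelial markers to 123 to 150 CPM and 2.12 to 2.67 CPM. Summed epithelial (36.1 to 43.8 against 7.28 to 8.39 CPM) and endothelial markers (32.4 to 32.7 against 8.29 to 11.4 CPM) were also lower at P6, while those of adipocyte markers (1.09 to 1.42 against 1.82 to 6.05 CPM, with 3 of 5 at 0 throughout) were not. The 6 neural and glial markers were divided, with 3 called lower (50.0%), 2 called higher (33.3%) and a median of -0.36. Their sum was nevertheless 156 to 193 CPM at P1 and 223 to 257 CPM at P6. The part of these cell type markers in the differences between passages described below was not tested. In bulk RNA, fewer cells of a type and less RNA per cell cannot be told apart.

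The first question was how P6 differed from P1. Respiratory chain genes were mostly a little lower at P6, in every complex. The 87 members took 0.622%, 0.701% and 0.668% of all counts at P1 (vehicle, α-amyrin, β-amyrin) and 0.540%, 0.573% and 0.574% at P6, so that each P6 library lay below each P1 library. Throughout, values of 3 libraries at a passage are given in the order vehicle, α-amyrin, β-amyrin. Summed by complex, the passages overlapped in complex IV (1074, 1224 and 1190 CPM at P1, 1057, 1113 and 1108 CPM at P6). They also overlapped, narrowly, in complex II. Of 81 members tested, 50 fell and 2 rose at P6 by the quasi-likelihood test of edgeR (adjusted p below 0.05, all 6 libraries, passage and treatment as additive terms), and 29 were not called. Among all 16962 genes tested, 29.1% were called lower and 30.0% higher. The median log2 fold change of the members was -0.21, with a range of -1.24 to 0.32, against 0.00 for all genes tested. The differences were thus small for most members, and their direction was shared by 70 of 81. Since the labels do not tie the 2 passages to a common isolate, passage and isolate cannot be told apart.

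**Figure D1:**
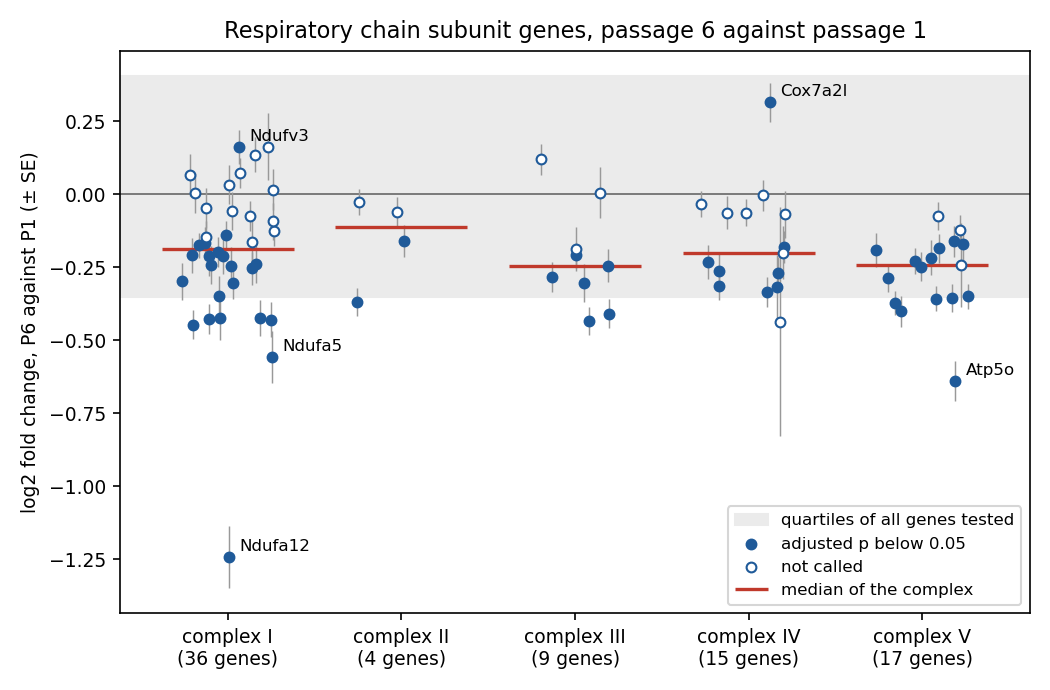
Log2 fold change of P6 against P1 (vertical axis, with SE) of the 81 respiratory chain subunit genes tested, by complex. Filled points passed an adjusted p of 0.05, red lines are medians of each complex, and the grey band holds the middle quartiles of all 16962 genes; most points lie between 0 and -0.5, Ndufa12 lies at -1.24 and Cox7a2l at 0.32.

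The same held in each treatment taken alone, where 2 single libraries were compared without a test. The P6 library was below the P1 library in 63 of 81 members with vehicle (49.9% of all genes tested), 73 under α-amyrin (49.5%) and 69 under β-amyrin (50.0%), with median log2 ratios of -0.16, -0.25 and -0.18. It was lower in all 3 treatments in 62 of 81 members (76.5%, against 37.9% of all genes) and higher in all 3 in 6 (7.41%, against 38.4%). All 3 P6 libraries lay below all 3 P1 libraries in 47 members (58.0%, against 32.2% of all genes) and above them in 2, Ndufb2 and Cox7a2l (2.47%, against 32.5%). The 3 comparisons share no library, and across the 81 genes, which are not independent replicates, their ratios correlated with Pearson's r of 0.75 (vehicle and α-amyrin), 0.74 (vehicle and β-amyrin) and 0.64 (α- and β-amyrin). Without Ndufa12 the 3 values were 0.69, 0.64 and 0.54. Across all genes tested r was 0.88 in each of these pairs, above the values of the members.

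In complex I, 21 of 36 members fell (58.3%, against 29.1% of all genes) and 1 rose (2.78%, against 30.0%), with a median of -0.19. The 7 core subunits tested include those that carry the flavin and the iron-sulfur clusters. Of the 7, 5 fell (71.4%, against 29.1% of all genes) and none rose (against 30.0%). Ndufv1, the subunit that binds NADH and the flavin, measured 64.5, 75.5 and 70.6 CPM at P1 and 48.5, 53.7 and 52.1 CPM at P6. All its P6 values lay below all its P1 values, as in 32.2% of all genes. Its log2 fold change was -0.45 ± 0.050 (SE; adjusted p = 0.00029, edgeR). Core members that fell also included Ndufs8 (-0.30), Ndufv2 (-0.20) and Ndufs1 (-0.14), while Ndufs3 (-0.12) and Ndufs7 (-0.09) were not called.

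Among the 29 supernumerary subunits of complex I, which surround the core and are needed for its assembly or stability, 16 fell (55.2%, against 29.1% of all genes) and 1 rose (3.45%, against 30.0%). Ndufa12 measured 35.0, 47.0 and 42.7 CPM at P1 and 15.4, 23.4 and 14.6 CPM at P6, and its log2 fold change was -1.24 ± 0.105 (adjusted p = 8.7e-05, edgeR). All 3 P6 values were well below all P1 values. The counts of its copy Ndufa12-ps went the other way in 2 of 3 treatments, with 13.0, 12.7 and 17.1 CPM at P1 and 19.8, 11.0 and 22.4 CPM at P6. When the counts of each member's near-identical copies were added to the member and the libraries scaled again, Ndufa12 with its copy measured 48.1, 60.2 and 59.9 CPM at P1 and 35.2, 34.1 and 36.9 CPM at P6. The log2 fold change was then -0.66 (adjusted p = 0.00037, edgeR), a smaller difference with the same direction. How the authors' counting placed reads that match both sites was not given in the sources used here, so the level of Ndufa12 alone is uncertain.

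**Figure D2:**
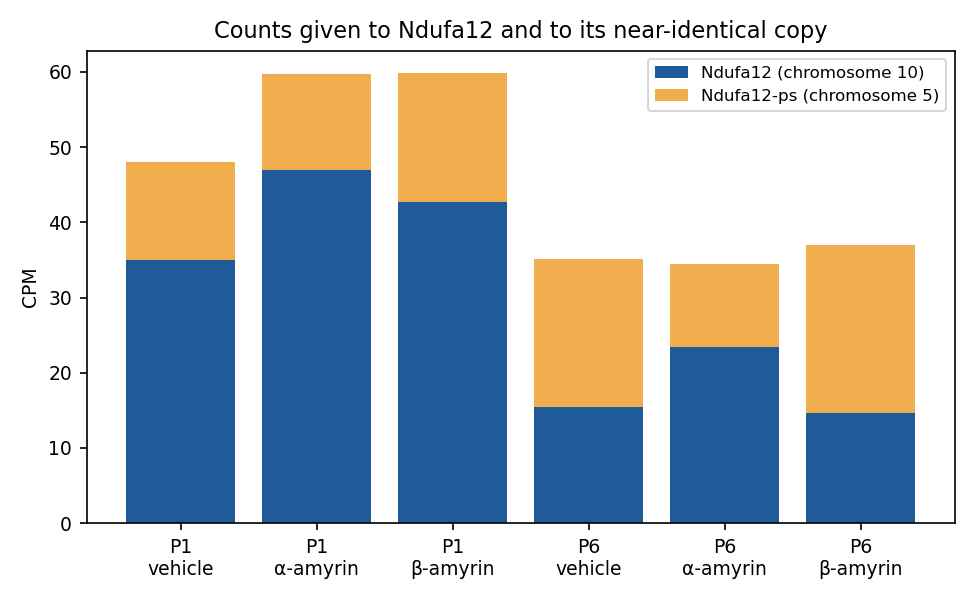
Stacked bars of CPM counted for Ndufa12 (blue) and for its near-identical copy Ndufa12-ps (orange) in each of the 6 libraries. The blue part spans 35.0 to 47.0 CPM at P1 and 14.6 to 23.4 CPM at P6, while the orange part is as high as 22.4 CPM in the P6 β-amyrin library.

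Other supernumerary subunits differed by less. Ndufa5, in the arm that reaches into the matrix, measured 18.2, 23.6 and 20.1 CPM at P1 and 11.9, 14.7 and 15.4 CPM at P6, with a log2 fold change of -0.56 ± 0.088 (adjusted p = 0.0015, edgeR). Ndufb6, in the membrane arm, measured 38.4, 40.6 and 47.0 CPM at P1 and 30.2, 29.6 and 33.5 CPM at P6 (-0.43 ± 0.059, adjusted p = 0.00079). In both genes all P6 values lay below all P1 values, as in 32.2% of all genes. For Ndufb6, 39.0% of the exon bases are shared with Smim27 on the opposite strand, and whether counting used strand was not given in the sources used here. Smim27 itself had 342, 414 and 411 counts at P1 and 255, 207 and 320 at P6.

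At the other end of complex I were 3 small subunits. Ndufv3, next to the flavin site, measured 29.8, 33.8 and 29.4 CPM at P1 and 33.8, 36.2 and 34.0 CPM at P6. It was called higher (0.16 ± 0.059, adjusted p = 0.049, edgeR), but in each of the alternatives tried the call was lost, and its highest P1 and lowest P6 values were both 33.8 CPM. Ndufa6 measured 25.1, 29.0 and 28.7 CPM at P1 and 27.9, 31.1 and 32.0 CPM at P6 (0.14 ± 0.059, adjusted p = 0.084). Ndufb2 measured 6.52, 6.35 and 6.43 CPM at P1 and 7.11, 8.02 and 6.57 CPM at P6 (0.16 ± 0.114, adjusted p = 0.26). None of these 3 differences was large, and Ndufb2 also had the lowest level per length in complex I, with a mean of 1.20 FPKM (a deposited value scaled for gene length and library size).

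Complex II, succinate dehydrogenase, is the only complex made wholly of nuclear-encoded subunits. Of its 4 members 2 were called lower (50.0%, against 29.1% of all genes), with a median of -0.11. Sdhb, the iron-sulfur subunit, measured 69.6, 70.6 and 71.0 CPM at P1 and 53.7, 53.8 and 56.1 CPM at P6, and fell by 0.37 on the log2 scale (SE 0.048, adjusted p = 0.00062, edgeR). The spread within each passage was small beside the gap between them. Sdhd, a membrane anchor, measured 59.6, 67.7 and 61.1 CPM at P1 and 53.7, 57.2 and 57.5 CPM at P6 (-0.16 ± 0.054, adjusted p = 0.038), a call that was lost in 7 of the alternatives. Sdha, the flavoprotein that oxidises succinate, measured 194, 224 and 213 CPM at P1 and 200.0, 203 and 200.5 CPM at P6, and its log2 fold change of -0.06 ± 0.051 was not called. Sdhc, the other anchor, measured 85.5, 95.7 and 92.6 CPM at P1 and 83.6, 95.2 and 90.0 CPM at P6 (-0.03 ± 0.044, not called). Both overlapped between the passages.

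In complex III, 6 of 9 members fell (66.7%, against 29.1% of all genes), none rose (against 30.0%) and the median was -0.24. The calls included both catalytic subunits and both core proteins. Uqcrc2, a core protein, measured 117, 109 and 118 CPM at P1 and 86.8, 84.2 and 83.8 CPM at P6 (-0.43 ± 0.048, adjusted p = 0.00029, edgeR). Cyc1, cytochrome c1, measured 72.0, 76.7 and 73.5 CPM at P1 and 54.5, 55.6 and 57.2 CPM at P6 (-0.41 ± 0.050, adjusted p = 0.00043). Uqcrfs1, the Rieske iron-sulfur protein, measured 62.3, 58.4 and 60.2 CPM at P1 and 49.2, 48.7 and 50.5 CPM at P6 (-0.28 ± 0.051, adjusted p = 0.0028). In all 3 genes each P6 value was below each P1 value, as in 32.2% of all genes. For Uqcrc2, 19.7% of the exon bases are shared with Pdzd9 on the opposite strand.

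The small subunits of complex III were divided, with 2 of 5 called lower (40.0%, against 29.1% of all genes). Uqcrb, which helps form the ubiquinone site, measured 35.9, 45.0 and 46.4 CPM at P1 and 31.8, 35.0 and 35.7 CPM at P6 (-0.30 ± 0.064, adjusted p = 0.0058, edgeR). Uqcr10 measured 29.5, 38.7 and 36.9 CPM at P1 and 27.4, 29.8 and 35.0 CPM at P6 (-0.19 ± 0.076, adjusted p = 0.072). Uqcr11 measured 30.7, 41.0 and 37.5 CPM at P1 and 34.4, 34.7 and 40.0 CPM at P6 (0.01 ± 0.087). Uqcrh, the acidic hinge protein between cytochrome c1 and cytochrome c, measured 63.3, 77.3 and 73.2 CPM at P1 and 73.5, 80.5 and 77.7 CPM at P6 (0.12 ± 0.052, adjusted p = 0.088). For the 3 that were not called, the passages overlapped, and in Uqcr10, Uqcr11 and Uqcrh the P1 vehicle library was the lowest or next to lowest of the 6.

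In complex IV, 7 of 15 members tested fell (46.7%, against 29.1% of all genes) and 1 rose (6.67%, against 30.0%), with a median of -0.20. The lowest fold changes among members with a mean of at least 5 CPM were those of Ndufa4, Cox5b-ps, Cox7a2 and Cox7b. Ndufa4 measured 75.6, 89.9 and 90.3 CPM at P1 and 62.6, 66.7 and 73.3 CPM at P6 (-0.33 ± 0.052, adjusted p = 0.0015, edgeR). Cox7a2 measured 58.1, 57.4 and 55.4 CPM at P1 and 45.9, 46.0 and 45.8 CPM at P6 (-0.31 ± 0.051, adjusted p = 0.0017). Cox7b measured 62.7, 74.3 and 66.9 CPM at P1 and 51.9, 57.8 and 59.3 CPM at P6 (-0.27 ± 0.056, adjusted p = 0.0054). These 3 encode small subunits found in most tissues. All their P6 values lay below all their P1 values, as in 32.2% of all genes. Cox5b-ps, named as a pseudogene but listed as protein coding, measured 8.86, 9.17 and 7.72 CPM at P1 and 6.56, 7.11 and 6.96 CPM at P6 (-0.32 ± 0.108, adjusted p = 0.040), a call lost in 6 alternatives. It matches Cox5b at 99.2% over 390 bases, and whether reads of the pair were split between them was not tested.

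Cox7a2l was called higher. Its protein links complexes III and IV in supercomplexes rather than serving as an ordinary subunit of complex IV, and its gene lies at chr17:83501918-83517330 on the minus strand. It measured 87.2, 85.3 and 90.9 CPM at P1 and 105, 120 and 103 CPM at P6, so that all P6 values were above all P1 values. Its log2 fold change was 0.32 ± 0.067 (adjusted p = 0.0060, edgeR), in a table where 30.0% of all genes were called higher. It was the member that stayed called higher in each of the alternatives tried. By contrast Cox4i1, a large regulatory subunit, measured 215, 258 and 228 CPM at P1 and 226, 235 and 235 CPM at P6, with a log2 fold change of -0.00 ± 0.054. Cox6b1, on the side of complex IV that meets cytochrome c, measured 93.8, 109 and 99.8 CPM at P1 and 93.0, 104 and 97.8 CPM at P6 (-0.03 ± 0.044).

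In complex V, 14 of 17 members tested fell (82.4%, against 29.1% of all genes), none rose (against 30.0%) and the median was -0.24. The calls took in all 5 subunits of the catalytic F1 head, all 3 genes of the c ring, 3 of 4 genes of the peripheral stalk and 3 of 5 small membrane subunits. Atp5b, the catalytic β subunit and the member with the highest counts, measured 892, 948 and 974 CPM at P1 and 696, 713 and 766 CPM at P6 (-0.37 ± 0.041, adjusted p = 0.00026, edgeR). Atp5a1, the α subunit, measured 533, 573 and 553 CPM at P1 and 421, 432 and 441 CPM at P6 (-0.36 ± 0.042, adjusted p = 0.00036). Atp5d, the δ subunit of the central stalk, measured 107, 121 and 109 CPM at P1 and 95.9, 101 and 103 CPM at P6 (-0.16 ± 0.052, adjusted p = 0.033), a call lost in 7 alternatives. The α and β subunits thus fell by nearly the same amount.

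The 3 c-ring genes encode the same mature protein with different import sequences, and all fell. Atp5g1 measured 67.2, 69.8 and 68.1 CPM at P1 and 48.2, 52.6 and 54.6 CPM at P6 (-0.40 ± 0.054, adjusted p = 0.00072, edgeR). Atp5g2 measured 68.3, 73.8 and 71.4 CPM at P1 and 56.5, 64.2 and 59.3 CPM at P6 (-0.25 ± 0.048, adjusted p = 0.0041). Atp5g3 measured 164, 170 and 172 CPM at P1 and 127, 132 and 138 CPM at P6 (-0.35 ± 0.043, adjusted p = 0.00047). In each of the 3, all P6 values lay below all P1 values, as in 32.2% of all genes. A near-identical copy of Atp5g1 held 23.9% of the counts summed over gene and copy. With the copy added, the log2 fold change of Atp5g1 was -0.38.

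Atp5o, the stalk subunit that confers oligomycin sensitivity, had the lowest fold change in complex V. It measured 29.7, 35.1 and 30.8 CPM at P1 and 19.2, 21.0 and 21.0 CPM at P6 (-0.64 ± 0.068, adjusted p = 0.00024, edgeR). Its gene (chr16:91925214-91931687, minus strand) shares 12.3% of its exon bases with a second gene model of the same symbol and strand, which had 0 counts in all 6 libraries. On the opposite strand, 17.5% are shared with D430001F17Rik, which had 576, 669 and 539 counts at P1 and 351, 294 and 407 at P6. Also on that strand, 18.1% are shared with Gm15976, which had 3, 1 and 9 counts at P1 and 9, 6 and 5 at P6. Whether these shared stretches overlap each other was not examined. Counts of Atp5o are therefore uncertain to the extent that reads over shared bases were dropped or assigned elsewhere, which was not tested. Atp5h, of the same stalk, measured 63.0, 76.7 and 78.4 CPM at P1 and 61.4, 70.1 and 68.3 CPM at P6 (-0.12 ± 0.053, adjusted p = 0.083). Atp5l, a small membrane subunit, measured 62.8, 65.7 and 62.3 CPM at P1 and 59.6, 61.4 and 60.1 CPM at P6 (-0.08 ± 0.048, adjusted p = 0.22). Neither of these was called, though all P6 values of Atp5l lay below all its P1 values.

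**Figure D3:**
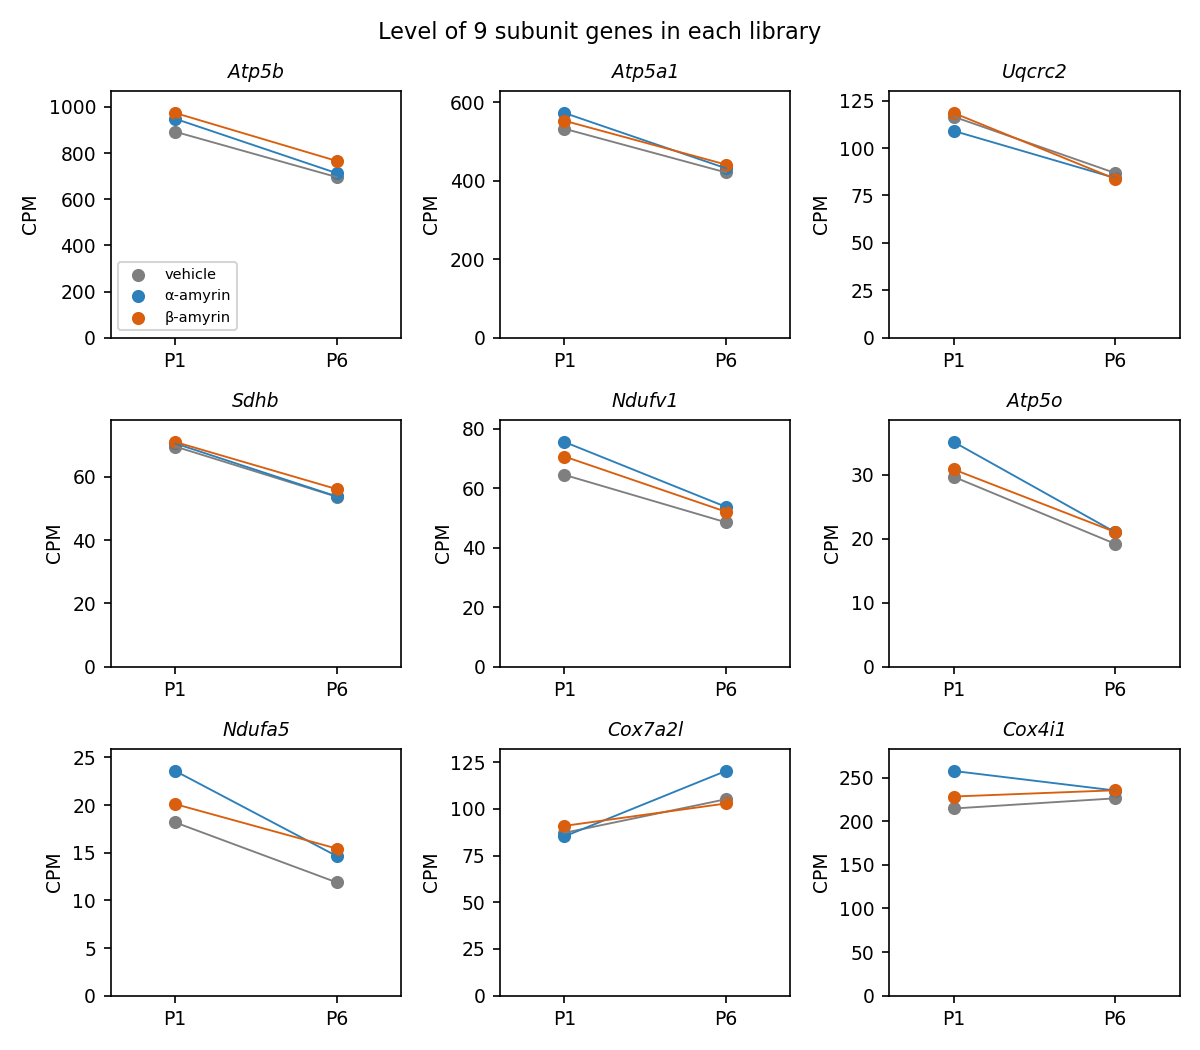
CPM of 9 named members in each library, at P1 and P6 (horizontal axis), with lines joining the 2 libraries of a treatment and each vertical axis starting at 0. Atp5b, Atp5a1, Uqcrc2, Sdhb, Ndufv1, Atp5o and Ndufa5 are lower at P6 in all 3 treatments, Cox7a2l is higher in all 3, and Cox4i1 lies between 215 and 258 CPM with no common direction.

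The members that have tissue-restricted partners showed which isoforms these cells express. On the FPKM scale, Cox4i1 averaged 155 over the 6 libraries and its partner Cox4i2 0.338. Cox6a1 averaged 180 FPKM (121, 127 and 134 CPM at P1, 126, 120 and 120 CPM at P6) and its heart and muscle partner Cox6a2 0.550 FPKM. Cox8a averaged 148 FPKM (74.1, 99.9 and 95.3 CPM at P1, 82.8, 82.8 and 89.5 CPM at P6) and its muscle partner Cox8b 0.0543 FPKM. The forms found in most tissues were thus far above the restricted ones. Cox7b averaged 54.1 FPKM, and Cox7b2 had 1 count, in the P1 vehicle library. Cox8c had 0 counts in every library, where 3 counts would equal 0.102 to 0.159 CPM. Cox7a2 averaged 59.1 FPKM, Cox7a2l 71.2 and the muscle form Cox7a1 0.943.

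Cox7a1 measured 0.614, 0.544 and 0.724 CPM at P1 and 0.550, 0.584 and 0.279 CPM at P6, and its log2 fold change of -0.44 ± 0.393 was not called. Cox6b1 averaged 144 FPKM, and Cox6b2, a form best known from testis, was the 1 restricted partner at a moderate level, with 12.8 FPKM. Cox6b2 measured 11.7, 17.1 and 15.0 CPM at P1 and 10.9, 13.2 and 13.9 CPM at P6 (-0.20 ± 0.092, adjusted p = 0.10, edgeR). Among the c-ring genes Atp5g3 averaged 70.6 FPKM, Atp5g2 40.5 and Atp5g1 12.1, and this order held in all 6 libraries. Atp5g2 and Atp5g1 had similar counts, 9764 and 9002 summed over the libraries, but 1675 and 4912 annotated exon bases. Their order in FPKM thus rests largely on annotated length. The 6 members that were not tested were Cox4i2, with 4 to 14 counts per library, Cox6a2, with 5 to 11, Cox7b2, Cox8b, with 0 to 3, Cox8c and the second Atp5o model.

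Levels per length ranged widely among the 81 members tested. In complex V the mean ran from 10.4 FPKM (Atp5l) to 199 FPKM (Atp5b), and in complex IV from 0.943 FPKM (Cox7a1) to 180 FPKM (Cox6a1). Complex I ran from 1.20 FPKM (Ndufb2) to 80.1 FPKM (Ndufa2), complex II from 28.3 (Sdhb) to 51.1 FPKM (Sdhd) and complex III from 30.5 (Uqcrq) to 62.5 FPKM (Uqcrh). FPKM divides by annotated length, and members such as Ndufb2 and Atp5l have 5628 and 6443 annotated exon bases against a median of 1675 for the 81 members.

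Members with the NRF1 letters in their promoter window had a median log2 fold change at P6 of -0.07 (10 genes), against -0.21 for the 57 without. With and without the ETS letters the medians were -0.12 (17 genes) and -0.22 (50 genes), and with and without the YY1 letters -0.21 (10 genes) and -0.20 (57 genes). Of the 6 genes whose letters are printed above, Sdhb (-0.37) and Atp5g2 (-0.25) fell, and Atp5k (-0.24), Cox6a1 (-0.06), Ndufa11 (0.03) and Ndufa6 (0.14) were not called. Holding the letters is a description of these windows, and no test was made of it.

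Other mitochondrial genes were read from lists beside the members. The 12 tested protein genes of mitochondrial DNA encode the partner subunits in complexes I, III, IV and V, and had a median of 0.15. Of these 1 was called lower (8.33%, against 29.1% of all genes) and 1 higher (8.33%, against 30.0%). mt-Nd3 measured 18.8, 14.9 and 15.8 CPM at P1 and 12.5, 10.5 and 10.3 CPM at P6 (-0.57 ± 0.081, adjusted p = 0.00087, edgeR). mt-Nd6 measured 475, 475 and 569 CPM at P1 and 671, 652 and 570 CPM at P6 (0.32 ± 0.095, adjusted p = 0.024). Between the 2 libraries of each treatment, the median log2 ratio of the 12 genes, P6 over P1, was 0.12 with vehicle, 0.19 under α-amyrin and -0.02 under β-amyrin. The difference between these medians and those of the nuclear subunits was not tested.

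Assembly factors gave no direction common to all complexes. Of 16 tested for complex I, 6 fell (37.5%, against 29.1% of all genes) and 1 rose (6.25%, against 30.0%). Their median was -0.19, with 12 below 0. For complex II 2 of 4 rose (50.0%, median 0.23), and for complex III none of 6 was called (-0.07). For complex IV 8 of 23 fell (34.8%) and 6 rose (26.1%), shares near those of all genes (median 0.04). For complex V 1 of 3 fell (33.3%, median -0.25), and all 3 were below 0. Among them Ndufaf4 (-0.77) and Tmem126a (-0.66) fell and Tmem126b (0.46), which acts in building the membrane arm of complex I, rose. Sdhaf4 (0.73) and Sdhaf2 (0.18), which help mature the flavin subunit of succinate dehydrogenase, rose, while that subunit, Sdha (-0.06), was not called. Cox10 (-0.72), which makes heme for complex IV, and Lrpprc (-0.40), which keeps mitochondrial mRNAs stable, fell, and Pet100 (0.65) rose. The 3 genes of complex III assembly with the smallest p were Bcs1l (-0.17), Ttc19 (-0.13) and Lyrm7 (0.26), and those of complex V were Atpaf2 (-0.25, called), Atpaf1 (-0.25) and Tmem70 (-0.05).

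Among electron carriers and feeders, 6 of 21 fell (28.6%, against 29.1% of all genes) and 5 rose (23.8%, against 30.0%), shares near the background. Cycs, cytochrome c itself, measured 64.6, 63.6 and 77.3 CPM at P1 and 41.5, 39.4 and 48.7 CPM at P6 (-0.66 ± 0.050, adjusted p = 5.3e-05, edgeR). Sqor, which feeds electrons from sulfide into ubiquinone, rose by 1.78 on the log2 scale, and Pdss1, an enzyme of ubiquinone synthesis, fell by 1.23. In the TCA cycle 10 of 18 fell (55.6%, against 29.1% of all genes) and 2 rose (11.1%, against 30.0%). The median of the 18 was -0.17, with Idh2 at -0.83, Mdh2 at -0.45 and Cs, citrate synthase, at -0.42. Of 22 genes of mitochondrial import and folding 18 fell (81.8%, against 29.1% of all genes) and none rose (against 30.0%). Their median was -0.39, and the chaperones Hspd1 (-0.85), Hspe1 (-0.80) and Hspa9 (-0.65) were among those that fell. Of 7 carriers of ATP, ADP and protons 5 fell (71.4%, against 29.1% of all genes) and 1 rose (14.3%, against 30.0%). Slc25a5, an ATP/ADP translocase, was at -0.74, Vdac3 at -0.38 and the uncoupling protein Ucp2 at 2.94. Ucp2 measured 18.9, 17.2 and 9.17 CPM at P1 and 132, 144 and 71.5 CPM at P6, with the P1 β-amyrin library lowest, as it was for the macrophage markers.

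Ribosomal genes were mostly lower at P6 as well. Of 77 genes of the mitochondrial ribosome 52 fell (67.5%, against 29.1% of all genes) and 1 rose (1.30%, against 30.0%). Their median was -0.32, with Mrps27 at -0.85, Mrps18b at -0.69 and Mrpl12 at -0.66. Of 74 genes of the cytosolic ribosome 72 fell (97.3%, against 29.1% of all genes, median -0.48), with Rps2 at -0.76 and Rpl8 at -0.73. Regulators of mitochondrial biogenesis were mixed, with 6 of 17 lower (35.3%), 2 higher (11.8%) and a median of -0.23. The share called lower was near that of all genes. Pprc1, a coactivator related to PGC-1, measured 108, 98.4 and 105 CPM at P1 and 71.9, 62.5 and 69.8 CPM at P6 (-0.61 ± 0.046), Myc was at -0.82, and the nuclear receptor Esrra, at 0.62, rose. Of relatives outside the naming rule, the ATP synthase inhibitor Atpif1 (-0.09) was not called, Dmac2l (0.62), the coupling factor B of ATP synthase, rose, and Dmac2 (0.33) was not called.

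**Figure D4:**
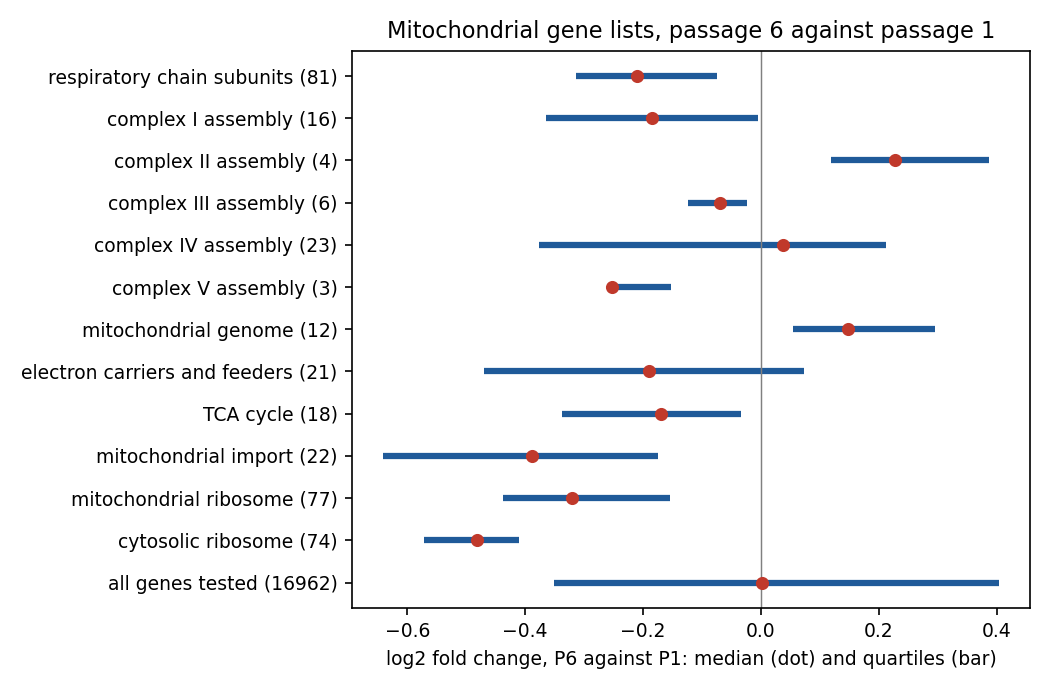
Median (red dot) and middle quartiles (blue bar) of the log2 fold change of P6 against P1 for the respiratory chain subunits, 11 other gene lists and all genes tested, with the number of genes in brackets. The subunits lie at -0.21, the cytosolic ribosome at -0.48 and the mitochondrial genome at 0.15.

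The second question was what the amyrins did. No respiratory chain subunit was called for either compound, though most stood slightly above vehicle. The log2 fold change of α-amyrin against vehicle was above 0 in 74 of 81 members (median 0.14, against 0.01 for all genes tested), and that of β-amyrin in 73 (median 0.10, against 0.00). With edgeR, 0 members passed an adjusted p of 0.05 for α-amyrin, where 0.0295% of all genes did, and 0 for β-amyrin, where 0.0059% did. At an unadjusted p below 0.05 there were 30 members for α-amyrin and 24 for β-amyrin, all of them higher, of 1995 and 1739 among all 16962 genes. DESeq2 and limma on the FPKM values also called 0 members for either compound. The 95% interval held 0 for 51 of 81 α-amyrin values and 57 of the β-amyrin values, and lay within 1.5-fold either way for 76 and 78.

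Library by library, the α-amyrin value was above the vehicle value in 71 of 81 members at P1 (49.3% of all genes) and in 67 at P6 (53.4%), with median log2 ratios of 0.14 and 0.09. The β-amyrin value was above it in 71 at P1 (50.2% of all genes) and 69 at P6 (51.7%), with medians of 0.13 and 0.11. It was higher at both passages in 61 members for α-amyrin (75.3%, against 30.7% of all genes) and in 61 for β-amyrin (75.3%, against 30.4%). The macrophage markers also stood apart in these comparisons. All 12 were below 0 for β-amyrin against vehicle (median -1.39) and 8 of 12 above 0 for α-amyrin (median 0.14), with 0 called in either by edgeR and 6 and 0 at an unadjusted p below 0.05. All 12 were above 0 for α-amyrin against β-amyrin (median 1.26), with 0 called and 8 at an unadjusted p below 0.05. Their part in the differences of the members was not tested. Both compounds were compared with the same 2 vehicle libraries, so these counts are not independent of each other. The cytosolic ribosome genes stood above vehicle in a like manner, with medians of 0.11 for α-amyrin and 0.14 for β-amyrin and 68 and 71 of 74 above 0.

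**Figure D5:**
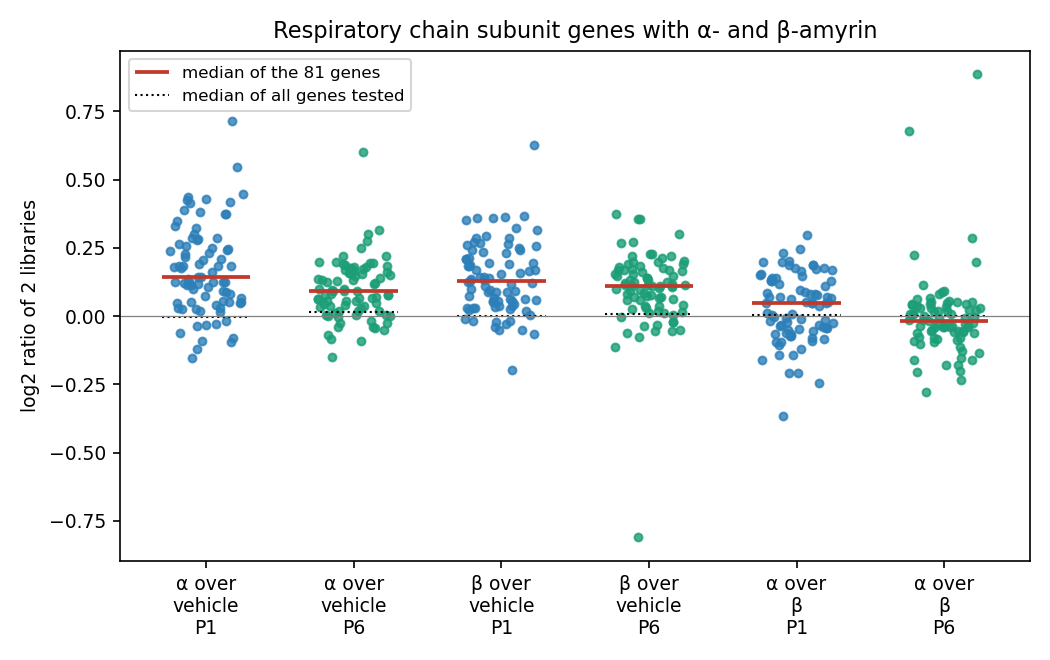
Log2 ratio of 2 libraries for each of the 81 members (points), with the median of the members (red line) and of all genes tested (dotted line). The medians of the members are 0.14 and 0.09 for α-amyrin over vehicle at P1 and P6, 0.13 and 0.11 for β-amyrin over vehicle, and 0.05 and -0.02 for α-amyrin over β-amyrin.

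Among members, shorter genes stood higher with the compounds, with larger coefficients at P1 than at P6. Across the 81 members, Spearman's rho between exon length and the log2 fold change was -0.29 for α-amyrin and -0.33 for β-amyrin, against -0.11 and -0.09 across all genes tested, and 0.01 for P6 against P1. Between single libraries, rho was -0.32 at P1 and -0.11 at P6 for α-amyrin over vehicle, and -0.39 and -0.19 for β-amyrin. Across all genes the 4 values were -0.10, -0.08, -0.04 and -0.11. The members had a median of 1675 exon bases against 3859 for all genes tested. The part of gene length in the compound differences was not tested, and genes are not independent replicates.

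The members named for α-amyrin were Ndufa12, Cox6b2, Ndufa1 and Cox5b. Ndufa1, a membrane-arm subunit of complex I, measured 28.4, 38.8 and 34.3 CPM at P1 and 28.6, 34.0 and 35.3 CPM at P6, so that vehicle was lowest at both passages. Its log2 fold change was 0.35 ± 0.084 (adjusted p = 0.22, edgeR), and without a filter on low counts it was called (adjusted p = 0.046). Cox5b, the zinc-binding subunit of complex IV, measured 51.6, 66.8 and 61.1 CPM at P1 and 45.5, 52.2 and 51.4 CPM at P6 (0.29 ± 0.069, adjusted p = 0.22). For Cox6b2 the value was 0.42 ± 0.114 (adjusted p = 0.27). Ndufa12 stood at 0.51 ± 0.128 (adjusted p = 0.24), was called without the filter (adjusted p = 0.0056) and without either β-amyrin library, and stood at 0.15 (adjusted p = 0.61) once its copy was added.

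For β-amyrin the named members were Atp5h, Cox6b2, Cox6c, Ndufa4, Ndufb8 and Uqcr10. Cox6c, a small complex IV subunit, measured 77.1, 84.1 and 90.5 CPM at P1 and 73.7, 82.5 and 84.8 CPM at P6 (0.22 ± 0.056, adjusted p = 0.33, edgeR). Ndufb8, of the membrane arm, measured 19.7, 21.3 and 25.3 CPM at P1 and 20.7, 21.4 and 24.3 CPM at P6 (0.29 ± 0.084, adjusted p = 0.38). In both genes the order was vehicle, α-amyrin, β-amyrin at both passages. The values were 0.24 for Atp5h (adjusted p = 0.36) and Ndufa4 (adjusted p = 0.34), 0.34 for Uqcr10 (adjusted p = 0.36) and 0.36 for Cox6b2 (adjusted p = 0.41).

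The isomers were compared as 1 pair, at the same dose and time, with p-values adjusted over all genes tested. No member was called (0 of 81, against 0.059% of all genes), and the median log2 difference, α-amyrin minus β-amyrin, was 0.01. At an unadjusted p below 0.05 there were 3 members, 1 higher and 2 lower with α-amyrin, of 1563 among all genes, and DESeq2 and limma called 0. The 95% interval held 0 for 78 of 81 members, reaching 0.16 to either side at the median, and lay within 1.5-fold either way for 79, so for these a difference beyond that size lies outside the interval, while smaller ones do not. The α-amyrin value was above the β-amyrin value at both passages in 24 members (29.6%, against 29.2% of all genes) and below it at both in 25 (30.9%, against 27.7%).

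Among single members, Ndufa12 stood at 0.38 (95% interval 0.08 to 0.68, adjusted p = 0.47, edgeR) for α-amyrin minus β-amyrin. It was called without the P1 β-amyrin library, where the difference was 0.64. With the copy added the difference was -0.05 (adjusted p = 0.91). Ndufb3, of the membrane arm, measured 18.1, 20.0 and 23.1 CPM at P1 and 18.2, 16.4 and 19.9 CPM at P6, a difference of -0.24 (interval -0.48 to 0.00). Ndufb8 was at -0.21 (-0.41 to -0.01) and Ndufb6 at -0.19 (-0.37 to -0.02). In these 3 membrane-arm genes the β-amyrin value was above the α-amyrin value at both passages, as in 27.7% of all genes. They were picked by this contrast over both passages, so the shared direction is no added evidence. None passed the adjusted threshold.

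The third question was whether the passage difference depended on the compounds. With both amyrin libraries of a passage treated as samples of a common amyrin group, the passage-by-amyrin term was called for 0 of 81 members and 0 of all 16962 genes (0.0%) by edgeR, and 2 members and 451 genes had an unadjusted p below 0.05. These 2 members, picked after their values were seen, were Cox8a (unadjusted p = 0.031) and Atp5k (unadjusted p = 0.0038). Atp5k, a small membrane subunit of complex V, measured 16.5, 27.1 and 25.6 CPM at P1 and 19.5, 19.2 and 18.8 CPM at P6. Only its P1 amyrin libraries stood apart, and its P6-against-P1 log2 ratio was 0.24 in vehicle libraries, -0.50 under α-amyrin and -0.44 under β-amyrin. No other tool was run for this term. With 1 library per condition, such departures have no replicate check.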

How the data were processed

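Poly(A) RNA of 6 MEF cultures was made into libraries with a directional kit, per the labels' protocols. The submitters' processing notes name FastQC 0.11.7, Trimmomatic 0.38, HISAT2 2.1.0, SAMtools 1.9, featureCounts 1.6.3 and the build mm10. The settings, strand use and treatment of multiply mapped reads were not given in the sources used here. Per gene, the authors deposited raw read counts and, for the same genes, FPKM values whose making is not given either. Within a member, FPKM per CPM varied between libraries with a median CV of 1.0% and at most 20.0%. FPKM was used to compare levels between genes and in alternatives on log2(FPKM + 1) and log2(FPKM + 0.1).

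Counts were scaled by TMM and filtered with filterByExpr (passage as group), which kept 16962 genes and 81 members. The quasi-likelihood test of edgeR 4.0.16 (R 4.3.3) fitted passage and treatment additively to all 6 libraries, with Benjamini-Hochberg adjustment over all genes and a threshold of 0.05. The fit had 2 residual and 4.83 prior degrees of freedom and a common biological coefficient of variation of 7.72%. Nothing in the labels says that libraries came from separate cultures, so p-values measure only the spread among these libraries, and a response that differs between passages counts as error. Standard errors were derived from the test statistic. Pair ratios used CPM with a prior count of 2. DESeq2 1.42.0 and limma 3.58.1 served as alternatives. Intervals and floors cover counting error or the fit's spread only. A floor is 3 counts per library.

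Coordinates of all 87 members equalled those of GENCODE release M21, which gave exon lengths, overlaps and, with blastn 2.17.0, copies of at least 150 aligned bases and 97% identity (18 members, 8 of them with copies holding at least 10% of the summed counts). Of the tested members, 26 overlap an exon on the opposite strand, 9 of them over more than 10% of their exon bases. The members and all gene lists were chosen with earlier results of these data known. Named members were, per complex, up to 4 with the lowest and up to 3 with the highest P6-against-P1 fold change (mean of at least 5 CPM), all of complex II, isoform partners, and for each compound the 3 with the smallest p and the 3 with the largest change. From each other list the 3 genes with the smallest adjusted p were named. Single values of some genes are not reported here.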

Additional observations from a re-analysis of the deposited data

How the results depend on the processing

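For P6 against P1, the members called lower (50) numbered 36 with DESeq2, 51 with median-of-ratios factors or total counts, 50 without the filter, 53 with limma on FPKM, 40 with passage as the only term, 38 with the amyrin libraries only, 52 with copies added (chosen after seeing the data) and 35 to 47 when 1 library was left out. Members called higher (2) numbered 1 in all of these except limma on FPKM, with 2, and 1 to 1 when 1 library was left out. Ndufv3 was the call that was lost, Cox7a2l remained, and limma on FPKM added Ndufa6. For α-amyrin against vehicle, 2 members were called higher without the filter and 0 to 1 when 1 library was left out, and for α-amyrin minus β-amyrin 0 to 1, without the P1 β-amyrin library. For β-amyrin 0 were called in each alternative. The member median of α-amyrin over vehicle at P1 was 0.14, and 0.18 with total counts. The share of members with NRF1 letters was 14.9%, and 7.46% with the 9-base form TGCGCATGC, which 3.22% of all tested genes and 1.72% of all genes with a window held. Among the 43 named members tested, the P6-against-P1 call was lost in 35 and gained in 6 of the alternative values. The outcome was the same in 604, which include members called in neither the main fit nor the alternative. The calls lost were those of Ndufv3, Sdhd, Atp5d and Cox5b-ps, and none reversed. No paired analysis was possible because the labels give no replicate numbers and each condition has 1 library. Depth limits the tissue-restricted members, of which Cox4i2, Cox6a2, Cox7b2, Cox8b and Cox8c had 14 counts or fewer in each library.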
